A study of Homo sapiens with 8 samples.

Results

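MT-RNR1 and MT-RNR2 encode the 12S and 16S ribosomal RNAs of human mitochondria. They are 2 of the 37 genes of mitochondrial DNA (mtDNA) and 2 of the 14762 genes with at least 1 read in the bound-RNA libraries described here. Both were chosen by name, on the plus strand, with no measured value. In the numbering of the deposited files (hg19, chrM), MT-RNR1 (ENSG00000211459.2) spans chrM:650-1603, 954 nt, and MT-RNR2 (ENSG00000210082.2) spans chrM:1673-3230, 1558 nt. Bases below are counted from 1 at the 5′ end of each gene. The genes hold 253 and 397 cytosines on the transcript strand, 650 in all, or 26.5% and 25.5% of their bases.

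Human mitochondria copy both rRNAs from 1 long precursor RNA, with MT-TF, MT-RNR1, MT-TV, MT-RNR2, MT-TL1 and MT-ND1 in this order. Of these, MT-TF, MT-TV and MT-TL1 are tRNA genes. The 12S rRNA is the core of the small subunit of the mitochondrial ribosome and the 16S rRNA that of the large subunit. Near the 3′ end of 12S rRNA, in the decoding region, textbooks place a pair of modified cytosines, m5C841, a 5-methylcytosine made by NSUN4, and m4C839, an N4-methylcytosine made by METTL15. NSun3 is a mitochondrial cytosine-5 methyltransferase known for mitochondrial tRNA-Met, and NSun6 is a relative known for tRNAs and for cytosines in the motif CTCCA.

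The samples came from HEK293 cells, an established human embryonic kidney line. In miCLIP (methylation individual-nucleotide resolution crosslinking and immunoprecipitation) a methyltransferase stays bound to the cytosine it attacks, and reverse transcription stops beside it. Myc-tagged enzyme was expressed by transfection and cells were taken 24 h later, with 3 libraries for NSun3 and 3 for NSun6. The methods describe a mutated NSun3 that cannot let go of its RNA. Whether the NSun6 construct was mutated is not stated in the sources used here, so the enzymes may not have been held on RNA in the same way. Both enzymes were overexpressed, so neither group shows endogenous binding, and no library without enzyme was analysed here. For bisulfite sequencing, which converts unmethylated cytosines, poly(A) RNA was isolated from HEK293 cells whose labels name no transfection, so the values describe the rRNA that this selection kept. The table of methylated and unmethylated reads pools 2 samples, so bisulfite values have no replicates and their intervals cover counting error only.

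The NSun3 libraries held 47352 to 138921 reads and the NSun6 libraries 305392 to 467586. A single read equals 7.20, 18.9 and 21.1 RPM (a read count scaled to the library total) in NSun3 replicates 1, 2 and 3, but 2.14 to 3.27 RPM in NSun6. Reads on exons of NSUN3, the transfected gene, numbered 32, 19 and 0 in the NSun3 libraries and 0, 0 and 8 in the NSun6 libraries. Reads on NSUN6 numbered 0 in each NSun3 library and 323, 428 and 323 in NSun6. NSun3 replicate 3 thus had no read of its own transgene, and the comparisons of the rRNAs and of several of their leading cytosines are given with and without it. Nothing says that the 3 libraries of an enzyme came from separate cultures, so p-values measure the spread between these libraries, which may be technical.

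The sequences below carry the findings, each with the cytosine of interest in capitals and 10 bases on either side, read from the GRCh37 assembly and checked against the files' numbering. The first holds both cytosines called methylated, the next 2 a stretch that MT-RNR1 and MT-RNR2 share, the next 3 every CTCCA of the genes, and the rest the leading NSun3 cytosines.
12S bases m4C839 and m5C841 (chrM:1480-1500): acacaccgCcCgtcaccctcc
12S base 79 (chrM:718-738): tgagttcaccCtctaaatcac
16S base 398 (chrM:2060-2080): ccacagaaccCtctaaatccc
12S base 352 (chrM:991-1011): ttgtaaaaaaCtccagttgac
16S base 23 (chrM:1685-1705): cccaaacccaCtccaccttac
16S base 967 (chrM:2629-2649): gtatgaatggCtccacgaggg
12S base 312 (chrM:951-971): tagatcacccCctccccaata
12S base 275 (chrM:914-934): taacccaagtCaatagaagcc
16S base 64 (chrM:1726-1746): accatttaccCaaataaagta
16S base 1292 (chrM:2954-2974): ttctagagtcCatatcaacaa
16S base 1387 (chrM:3049-3069): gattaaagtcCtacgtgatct

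The first question was how much of the RNA bound by each enzyme came from the 2 rRNAs. MT-RNR1 had 4499, 1349 and 1029 reads in the NSun3 libraries, or 32385, 25441 and 21731 RPM. In the NSun6 libraries it had 2023, 2094 and 1693 reads, or 6245, 4478 and 5544 RPM. The groups did not overlap, and the NSun3 mean, 26519 ± 5408 RPM (SD, n = 3), was 4.89 times the NSun6 mean of 5422 ± 889.6 RPM (p = 0.1, two-sided, by exact permutation, which is as low as a design of 3 against 3 can go, with an adjusted p of 0.168 over the 37 mtDNA genes). MT-RNR2 had 3636, 1399 and 893 reads in the NSun3 libraries, or 26173, 26384 and 18859 RPM. In the NSun6 libraries it had 918, 1880 and 908 reads, or 2834, 4021 and 2973 RPM. Again the groups did not overlap, with means of 23805 ± 4285 RPM and 3276 ± 649 RPM (SD, n = 3 each), a ratio of 7.27 with the same exact permutation p of 0.1 and adjusted p of 0.168. Without NSun3 replicate 3 the enzymes differed by 23491 RPM for MT-RNR1 and 23003 RPM for MT-RNR2, against 21097 and 20529 with it. Such a separation was common in mtDNA. Of its 37 genes, 45.9% lay higher in each NSun3 library than in any NSun6 one, so the 2 rRNAs are not particular in this.

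**Figure D1:**
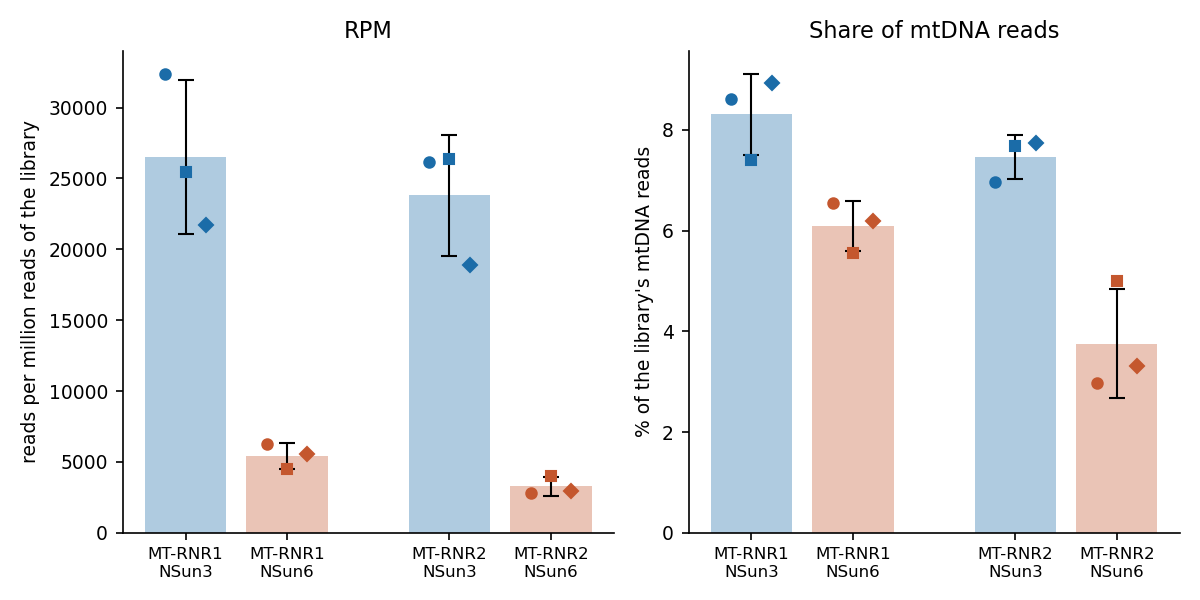
Reads of MT-RNR1 and MT-RNR2 by enzyme, as RPM of the whole library (left panel) and as % of its mtDNA reads (right panel). Bars are means, lines SD, and points single libraries (circle, square and diamond for replicates 1, 2 and 3). NSun3 lies above NSun6 for both genes in both panels, by 4.89 and 7.27 times in RPM and by 1.36 and 1.98 times in share of mtDNA reads.

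In the fit across 1666 genes with edgeR's quasi-likelihood test, both rRNAs rose in NSun3, MT-RNR1 with a log2 fold change of 3.89 ± 1.53 (SE, adjusted p = 0.0444) and MT-RNR2 with 4.38 ± 1.44 (adjusted p = 0.0229), but with mtDNA features alone neither was called, at -0.30 (adjusted p = 0.127) and 0.26 (adjusted p = 0.296). With no filter on low counts MT-RNR1 lost its call (2.04, adjusted p = 0.0677). Of all genes tested, 4.44% were called higher in NSun3 and 85.2% lower, with a median log2 fold change of -7.33. That median was -7.71 with RLE, -7.47 with library totals, -3.57 with DESeq2 and -3.49 with no filter. The rRNA values were 1.37 and 1.94 with RLE and 2.29 and 2.86 with library totals, all called. Without NSun3 replicate 3 the values were 3.79 and 4.29, and without NSun3 replicate 1, the deepest of the group, 2.20 and 2.89. Between mtDNA genes in the same precursor, MT-ND1, which encodes a subunit of complex I, was also called higher in NSun3 (log2 fold change 6.98 ± 1.98, adjusted p = 0.0133). MT-TL1 (0.67 ± 1.29, adjusted p = 0.631) and MT-TF (1.90 ± 1.25, adjusted p = 0.186), a leucine and the phenylalanine tRNA gene, did not pass the test with this scaling. MT-TL1 was called lower in NSun3 under RLE (-1.93, adjusted p = 0.00137), library totals (-0.97, adjusted p = 0.0381), mtDNA features alone (-3.56, adjusted p = 2.89e-06) and without NSun3 replicate 1 (-1.29, adjusted p = 0.016), and its mean RPM was 0.509 times that of NSun6 without overlap. MT-TF was called lower with mtDNA features alone (-2.77, adjusted p = 2.13e-04) and without NSun3 replicate 1 (-0.97, adjusted p = 0.0323), and higher with DESeq2 (2.49, adjusted p = 0.0283) and without NSun6 replicates 1, 2 or 3 (1.91, 1.80 and 1.69). With no filter the values of MT-TL1 and MT-TF were -1.17 and -0.03, so the direction of these tRNA genes changed with the scaling, the filter and the libraries kept. MT-TV, the valine tRNA gene between the rRNAs, had 0 reads in all 6 libraries, which allows 6.42 to 63.4 RPM at 3 reads per library.

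Because mtDNA as a whole took 24.4% to 37.6% of NSun3 reads and 8.05% to 9.56% of NSun6 reads, the rRNAs were also measured within mtDNA. MT-RNR1 made up 8.61%, 7.40% and 8.92% of mtDNA reads in the NSun3 libraries and 6.54%, 5.56% and 6.18% in the NSun6 libraries. MT-RNR2 made up 6.96%, 7.67% and 7.74% against 2.97%, 4.99% and 3.31%. On this scale the NSun3 means were 1.36 and 1.98 times the NSun6 means, again without overlap, where 35.1% of the 37 genes were higher without overlap. The differences were 2.22 and 3.70 percentage points, and 1.91 and 3.56 without NSun3 replicate 3. When each position at which a read stopped was counted once, the direction reversed for both, to differences of -3.64 and -4.40 percentage points (exact permutation p = 0.1 each). The rRNAs thus took a larger share of the NSun3 reads but a smaller share of the positions at which those reads stopped. Reads of MT-RNR1 began at 129, 46 and 16 positions in NSun3 replicates 1, 2 and 3 and at 92, 164 and 108 positions in NSun6, and for MT-RNR2 at 294, 83 and 33 against 130, 325 and 196. Reads from the opposite strand were nearly missing, with 0 or 1 per library in MT-RNR1 and 0 to 5 in MT-RNR2.

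Per length, 12S rRNA was read more densely than 16S rRNA in all 6 libraries. The ratio of reads per kb, MT-RNR1 over MT-RNR2, was 2.02, 1.57 and 1.88 in the NSun3 libraries and 3.60, 1.82 and 3.05 in the NSun6 libraries. The log2 ratio averaged 0.86 ± 0.19 for NSun3 and 1.44 ± 0.51 for NSun6 (SD, n = 3 each), and the enzymes overlapped (exact permutation test, two-sided p = 0.3). The difference was -0.578, and -0.604 without NSun3 replicate 3. In NSun6 the higher density rested on 12S base 79, described below. Without its reads, an alternative chosen after seeing the data, the NSun6 ratios were 1.20, 0.686 and 0.831, so that 12S was the less dense in 2 of 3 libraries, while the NSun3 ratios were 2.01, 1.57 and 1.88. The difference of the log2 ratios was then 1.04. Since base 79 was left out for its many NSun6 reads, this shift follows from the choice, and no test is drawn from it.

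Nuclear copies limit where a read can be placed. The study kept reads that map to 1 place, and the nuclear genome holds copies of mtDNA. An exact nuclear copy of at least 30 nt began at 66.1% of the bases of MT-RNR1 and at 38.6% of those of MT-RNR2, the longest being 219 and 99 nt. The other bases of MT-RNR1 held at least 98.7% of its NSun3 reads and 96.8% to 97.7% of its NSun6 reads, and the other bases of MT-RNR2 at least 99.8% in every library. These shares count a read at the base where it began, while a cytosine named below also takes reads that began up to 2 nt away. A copy of 30 nt begins at 12S base 79, the cytosine with most NSun6 reads, and one of 28 nt at base 81. Base 79 took 62.3% to 72.7% of the NSun6 reads of MT-RNR1. By the shares above, most of these began at the base between, in an exact copy just under 30 nt. The NSun6 shares of MT-RNR1 thus rest on the cutoff of 30 nt. Shorter copies are common too, with 27 and 26 nt at 16S bases 64 and 1387, where the shortest reads kept were 18 nt. What part such copies have in the density ratio above and in the positions below was not tested.

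The next question was at which cytosines the enzymes stopped reverse transcription. Reads were given to the nearest cytosine within 2 nt, and a cytosine over 50 RPM in at least 2 of 3 libraries was called high-confidence, with the cutoff that the study describes. MT-RNR1 held 20 such cytosines for NSun3 and 6 for NSun6, and MT-RNR2 39 and 7. For NSun3 that is 7.91% and 9.82% of the cytosines of each gene, beside 6.02% of all 5169 plus-strand cytosines of mtDNA, and for NSun6 2.37% and 1.76%, beside 1.59%. A total of 4, or 0.615% of the 650 cytosines beside 0.600% in mtDNA, passed for both enzymes, base 275 of 12S and bases 1439, 1486 and 1516 of 16S. In NSun3 replicates 2 and 3 the threshold is passed by 3 reads. Of the 59 NSun3 cytosines 34 had 0 reads in replicate 3, 4 had 0 in replicate 2 and none in replicate 1. Requiring all 3 libraries left 9 and 9 for NSun3, and 4 and 5 for NSun6. With replicate 3 left out, 17 and 36 NSun3 cytosines passed in both remaining libraries, against 12 and 12 without replicate 2 and 9 and 9 without replicate 1. For NSun6, all 13 cytosines had reads in all 3 libraries. Lowering the threshold to 20 RPM raised the NSun6 counts to 16 and 23.

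**Figure D2:**
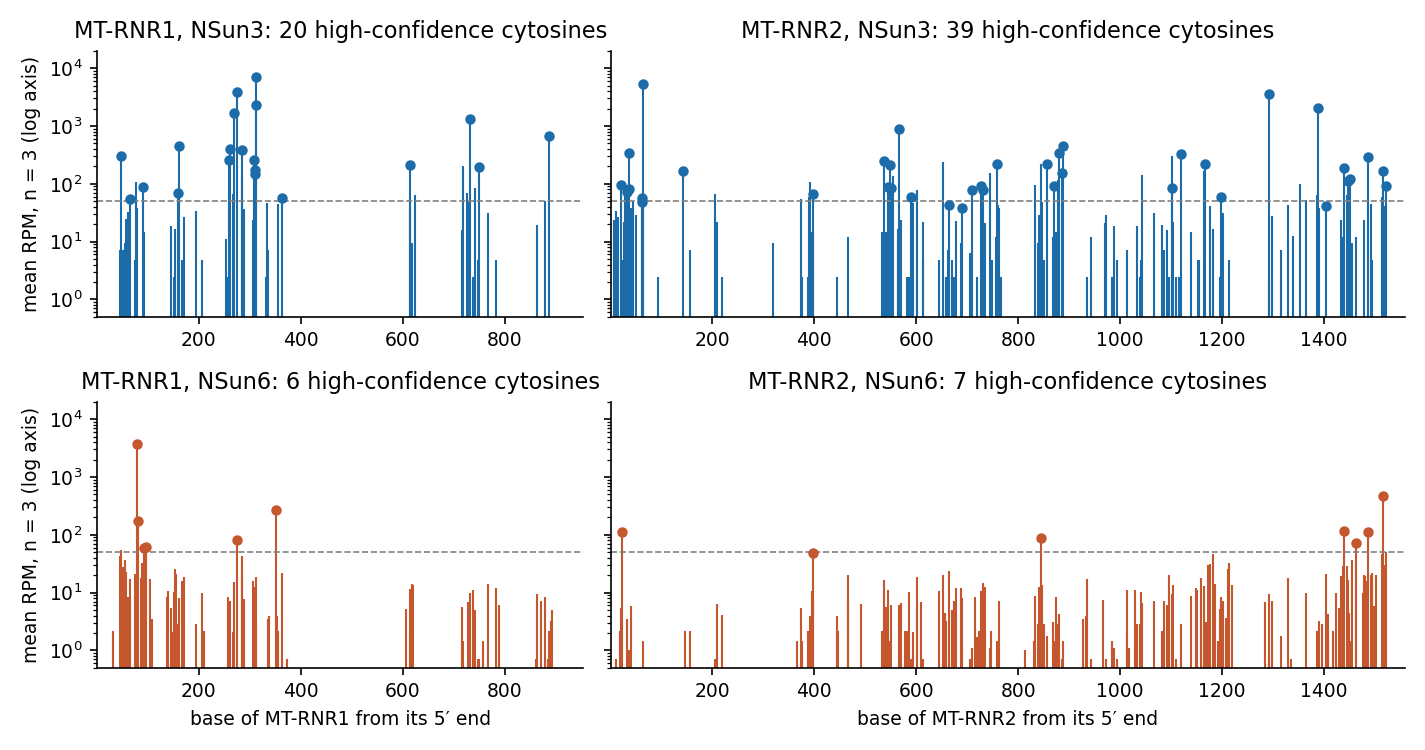
Mean RPM (n = 3, log axis) of each cytosine with reads along MT-RNR1 (left) and MT-RNR2 (right), for NSun3 (top) and NSun6 (bottom), against the base counted from the 5′ end. Dots mark high-confidence cytosines (20, 39, 6 and 7) and the dashed line 50 RPM. NSun3 peaks at 12S base 312 (6933 RPM) and 16S base 64 (5351 RPM), and NSun6 at 12S base 79 (3658 RPM).

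Over the 650 cytosines, profiles were correlated on the log2(RPM + 1) scale. Pairs of NSun3 libraries had a Pearson's r of 0.444 to 0.627, pairs of NSun6 libraries 0.586 to 0.710, and mixed pairs 0.136 to 0.468. The points of one pair share libraries and sequence, so these values are descriptions.

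NSun3 reads of 12S rRNA piled up between base 270 and base 313, not all of them beside a cytosine. In NSun3 replicates 1, 2 and 3, 74.7%, 83.5% and 83.2% of MT-RNR1 reads had a cytosine within 2 nt. Bases 251 to 300 held 16679, 8524 and 9439.9 RPM. The cytosines of this stretch together held less than that, so part of its reads stopped with no cytosine within 2 nt. Base 312, in a run of 5 cytosines, had 1129, 411 and 233 reads in the NSun3 libraries, 22.6% to 30.5% of all MT-RNR1 reads, and 0, 4 and 0 in the NSun6 libraries. It was the strongest NSun3 cytosine of both rRNAs, and its neighbour, base 313, had 197, 173 and 104 reads against 12, 9 and 0. The groups did not overlap at either base, and edgeR over 1775 cytosines gave log2 fold changes of 11.11 ± 1.17 (SE, adjusted p = 1.11e-05) and 7.22 ± 0.99 (adjusted p = 3.02e-05), or 10.46 and 6.04 without NSun3 replicate 3. Both bases passed the filter on low counts through NSun3 alone, so the direction of these calls was fixed. With mtDNA features alone base 313 lost its call (3.73, adjusted p = 0.0636). Base 275 had 678, 115 and 211 reads against 46, 28 and 14, or 3835 ± 1459 and 82.6 ± 51.9 RPM (SD, n = 3 each), a ratio of 46.4 (log2 fold change 5.82 ± 0.74, adjusted p = 1.73e-05). Its log2 fold change was 5.10 without NSun3 replicate 3, 3.56 without NSun3 replicate 1 and, no longer called, 2.40 with mtDNA features alone (adjusted p = 0.0838). It was the single cytosine of 12S rRNA that was high-confidence for both enzymes. Base 270, close upstream, had 305, 96 and 46 reads against 11, 4 and 1, a ratio of 109. Farther along, base 731 had 183, 88 and 47 against 1, 6 and 4, a ratio of 137, and base 887 had 56, 17 and 62 against 0, 0 and 2. All of these lay higher in every NSun3 library than in any NSun6 library, and without NSun3 replicate 3 bases 270 and 731 gave 6.52 and 6.53. Bases 270, 731 and 887 also passed the filter through NSun3 alone.

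In 16S rRNA the leading NSun3 cytosines lay far apart. Base 64 had 727, 361 and 190 reads, up to 25.8% of all MT-RNR2 reads, and 0, 2 and 0 in NSun6 (log2 fold change 11.49 ± 1.07, adjusted p = 9.64e-06 with edgeR). Base 1292 had 396, 286 and 118 reads against 2, 1 and 6, or 3579 ± 1582 and 9.32 ± 9.17 RPM (SD, n = 3 each), a log2 fold change of 8.73 ± 1.00 (adjusted p = 1.25e-05). Without NSun3 replicate 3 these were 10.76 and 8.02. Base 1387 had 326, 133 and 56 reads and none in NSun6, so it was at least 237 times higher in NSun3 against a floor of 3 reads per NSun6 library. Like bases 36, 64, 566 and 1292, it passed the filter through NSun3 alone, so the calls of these bases could go 1 way only. Bases 64, 1292 and 1387 each follow another cytosine, and bases 1292 and 1387 both follow agtc in the printed stretches. Base 36 (24, 27 and 17 reads) also had none in NSun6 and was at least 40.8 times higher. Base 566 (134, 63 and 25 reads against 0, 1 and 5) was 145 times higher, against an NSun6 mean of 6.17 RPM, under the mean floor of 8.50 RPM. Its log2 fold change was 7.31 ± 1.02, or 6.82 without NSun3 replicate 3, and it lost its call with mtDNA features alone (4.16, adjusted p = 0.0616). Base 887 of 16S had 37, 2 and 50 reads against 0, 2 and 0, and did not pass the filter on low counts.

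**Figure D3:**
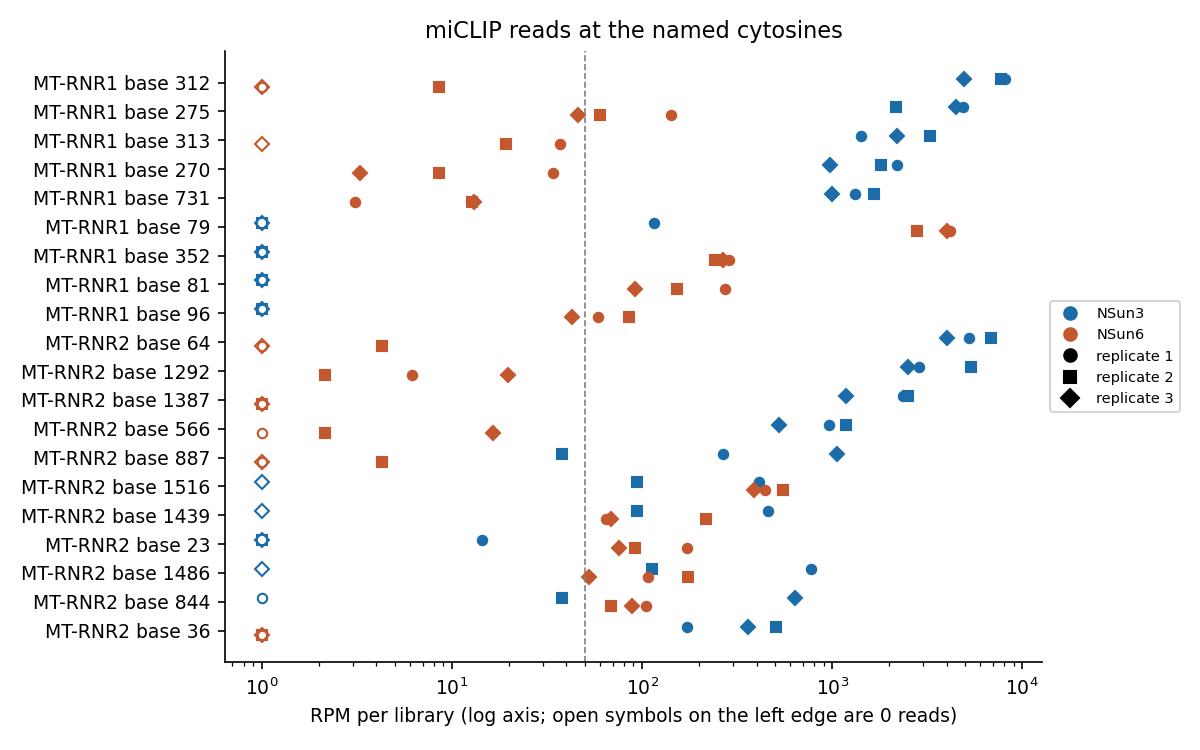
RPM of each of the 20 cytosines named by rank in each library (log axis, blue NSun3, orange NSun6, circle, square and diamond for replicates 1, 2 and 3), with open symbols for 0 reads and a dashed line at 50 RPM. The colours are apart at 16 cytosines, and overlap at 16S bases 1516, 1439, 1486 and 844.

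NSun6 reads of 12S rRNA sat mostly on 1 cytosine. Base 79 had 1346, 1304 and 1231 reads in the NSun6 libraries, 62.3% to 72.7% of all MT-RNR1 reads there, and 16, 0 and 0 in the NSun3 libraries. That is 3658 ± 756 RPM against 38.4 ± 66.5 RPM (SD, n = 3 each), and edgeR gave a log2 fold change of -5.98 ± 1.07 (adjusted p = 2.34e-04). Base 79 passed the filter on low counts through NSun6 alone, so its call could only be lower in NSun3. All NSun3 reads of base 79 came from replicate 1, and without that library it had none. Without NSun3 replicate 3 its value was -5.97. Base 81, 2 nt downstream, had 88, 71 and 28 reads and none in NSun3, at least 3.64 times lower there, and base 96 had 19, 40 and 13 and none, at least 1.32 times lower. Reads of base 81 lie so close to base 79 that they are not independent of it. Base 79 lies in the 12-nt run accctctaaatc, which occurs once in MT-RNR1, once in MT-RNR2, around base 398, and nowhere else on the plus strand of mtDNA. At 16S base 398 NSun6 had 9, 30 and 17 reads, a mean of 49.2 RPM, and NSun3 6, 0 and 0. The same run thus carried 3658 RPM in 12S rRNA and 49.2 RPM in 16S rRNA.

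Of the cytosines that open a CTCCA on the transcript strand of these genes, 2 of 3 were high-confidence for NSun6, beside 19 of the 38 (50%) on the plus strand of mtDNA and 1.59% of all its cytosines. Base 352 of 12S had 93, 113 and 81 reads, or 265 ± 22.7 RPM (SD, n = 3), and none in NSun3, at least 5.61 times lower there. Base 23 of 16S had 56, 43 and 23 reads against 2, 0 and 0 (log2 fold change -3.45 ± 0.86, adjusted p = 0.00177 with edgeR), or -3.94 without NSun3 replicate 3. Base 23 passed the filter on low counts through NSun6 alone, so its call could only be lower in NSun3. Both NSun3 reads came from replicate 1, and without that library the value was -8.07, set against a group at 0 reads. The third, base 967 of 16S, had 3, 3 and 2 NSun6 reads, 7.41 RPM, and none in NSun3. The longest exact nuclear copy beginning there is 30 nt, against 10 and 16 nt at the other 2 and 30 nt at 12S base 79, and the part of such copies in the count was not tested. CTCCA opens at 0.462% of the cytosines of both rRNAs and at 0.735% of the 5169 plus-strand cytosines of mtDNA. The shorter CTC began at 6 of the 13 NSun6 cytosines, 3 of the 59 NSun3 cytosines and 35 of all 650.

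The highest NSun6 cytosine of 16S rRNA was base 1516, near the 3′ end, with 143, 259 and 118 reads, 13.0% to 15.6% of MT-RNR2 reads there, against 57, 5 and 0 in NSun3. The groups overlapped (461 ± 85.4 against 168 ± 215 RPM, SD, n = 3 each) and edgeR did not call it (log2 fold change -1.04 ± 0.85, adjusted p = 0.255), but without NSun3 replicate 1 it did (-4.61, adjusted p = 0.0116). Bases 1439 (21, 102 and 21 reads against 64, 5 and 0) and 1486 (35, 82 and 16 against 107, 6 and 0) also overlapped between the enzymes, with adjusted p of 0.28 and 0.097. At base 844 NSun6 had 34, 32 and 27 reads and NSun3 0, 2 and 30, all but 2 of them in replicate 3, the library with no NSUN3 read. Its log2 fold change of 1.41 did not pass (adjusted p = 0.239), but it was called lower in NSun3 without that replicate (-3.59, adjusted p = 0.0104) and with mtDNA features alone (-3.72, adjusted p = 0.045).

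In total 30 cytosines of the 2 rRNAs passed the filter on low counts, which keeps a cytosine that is high in 1 enzyme alone. Of the 14 in MT-RNR1, 10 were called higher in NSun3 and 3 lower. Of the 16 in MT-RNR2, 8 were called higher and 1 lower. The 18 higher calls compare with 16.5% of all 1775 cytosines and with 61.4% of the 176 tested in mtDNA, and the 4 lower calls with 72.3% and 21.6%. In RPM, 17 of the 30 lay higher in NSun3 without overlap and 5 lower, against 15.7% and 74.1% of all cytosines tested. Members such as 12S bases 81 and 352 or 16S bases 36 and 1387, with 0 reads for 1 enzyme, could be called in 1 direction alone. The same holds for others that passed the filter through 1 enzyme alone, such as 12S bases 79 and 312. These counts thus describe the cytosines that passed, and nothing is read from them. Without NSun3 replicate 3, 16 and 29 were called higher and 5 and 2 lower. Without NSun3 replicate 1, 10 and 8 were called lower, and without NSun3 replicate 2, 5 cytosines of MT-RNR1 were. Leaving out NSun6 replicates 1, 2 and 3 raised the higher calls in MT-RNR2 to 14, 20 and 16, and without NSun6 replicate 1 its lower calls numbered 2.

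The letters beside the sites are given as a description, without a test between the enzymes. An A followed 35 of the 59 NSun3 cytosines (59.3%), 5 of the 13 NSun6 cytosines and 31.7% of all 650. A C preceded 55.9%, 23.1% and 32.6% of them, and a T followed 18.6%, 53.8% and 24.5%. What part the assignment of reads to cytosines has in these shares was not tested. A read that stops 1 nt downstream of a cytosine can be given to it only if the base there is no cytosine, and such reads were 34.6% of NSun3 and 57.8% of NSun6 reads in the rRNAs, against 37.7% and 18.4% that began on a cytosine. Reads with no cytosine within 2 nt made up 17.2% and 12.9%.

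The last question was which rRNA cytosines resisted bisulfite. With over 5 reads, a cytosine whose level (the share of its reads left unconverted) reached 20% counted as methylated. Of the 204 cytosines of MT-RNR1 so covered, 2 were methylated, and of the 385 of MT-RNR2 none. Together that is 0.340% of 589, against 0.775% of all covered cytosines of the table. Median coverage was 4901 reads (range 6 to 259601) in 12S and 4542 (17 to 140174) in 16S. Median levels were 0.0800% and 0.116%, and 508 of the 589 cytosines, 86.2%, were under 1%. Over mtDNA as a whole, 62.8% of the covered plus-strand cytosines were at or over 20%. Of the neighbours, MT-ND1 had 66.6%, at a median coverage of 39.0 reads, and MT-TL1 37.5%. With the reads of each gene pooled, the level was 12.9% in MT-ND1 and 7.49% in MT-TL1. The paper detected no methylated cytosine in the MT-ND1 transcript of any fibroblast line it examined. A level here counts unconverted reads, and whether these stand for methylation or for incomplete conversion was not tested. The near absence of methylated cytosines was not particular to the rRNAs. MT-TV, MT-TP, MT-TQ, MT-TC and MT-TY, all short tRNA genes, also had no methylated cytosine among their 7 to 14 covered ones, with median levels of 0%, 0%, 0.580%, 7.12% and 6.52%. Within the rRNAs higher levels went with fewer reads. Median coverage was 814 reads at cytosines of 1% or more and 4954 under 1% in MT-RNR1, and 294 and 6461 in MT-RNR2, and the part of depth in the levels was not tested.

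Both methylated cytosines lie in the 3′ part of 12S rRNA, 113 and 115 nt before its last base, at the places of the pair of modified bases named above. The cytosine at chrM:1490, C841, was unconverted in 679 of 1147 reads, a level of 59.2% (exact 95% interval 56.3% to 62.1%). The cytosine at chrM:1488, C839, was unconverted in 356 of 1406 reads, 25.3% (23.1% to 27.7%). The former was 2.34 times the latter, and their intervals do not overlap. The textbook names give these bases different marks, and how far each resists bisulfite was not tested. The cytosine between them, base 840, was at 0.339% of 1474 reads. All 12 other covered cytosines within 12 nt of C841 were at 0% to 0.339%, with 1054 to 1582 reads. Both levels are thus 2 isolated peaks in a stretch that was otherwise converted.

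**Figure D4:**
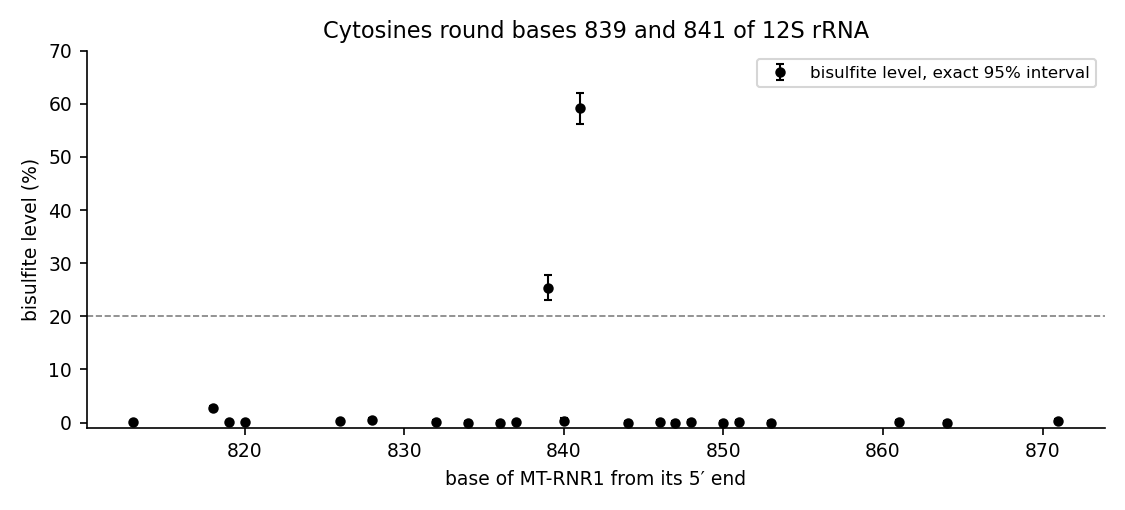
Bisulfite level (%) of the cytosines within 35 nt of C839 and C841 of MT-RNR1, with exact 95% intervals, against the base counted from the 5′ end. The dashed line is 20%. C841 stands at 59.2% and C839 at 25.3%, with every other cytosine at 2.78% or less.

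No miCLIP library had a read within 10 nt of base 840, and the nearest read starts lay at base 789 upstream and base 861 downstream. A nuclear copy of 50 nt begins at C839 and one of 48 nt at C841, and both lie inside a copy of 76 nt that begins at base 813. Bases of MT-RNR1 that begin no copy of 30 nt held at least 96.8% of its reads in every library, though for NSun6 most of these began in a copy just under that length. Base 767, with a copy of 106 nt, had 13, 0 and 0 NSun3 reads and 10, 1 and 3 NSun6 reads. Base 789, with one of 84 nt, had none in NSun3 and 2, 4 and 1 in NSun6. What part the copies have in the lack of reads at the methylated pair was not tested. Among the high-confidence miCLIP cytosines with over 5 bisulfite reads, none was methylated. The 58 of NSun3 had a median level of 0.137% (0% to 8.56%), the 13 of NSun6 0.171% (0.0581% to 1.59%), and the 522 other covered cytosines of both rRNAs 0.0925%. At 12S base 312, the strongest NSun3 cytosine, the level was 0.378% of 4760 reads, at 12S base 79 0.412% of 485, and at 16S base 64 0.510% of 392. The bisulfite samples are not the transfected ones, so these levels do not measure what the overexpressed enzymes methylate.

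Below the threshold, 16S rRNA had a broad rise. From base 547 to base 773 all 68 covered cytosines in a row were at 1.04% to 9.80%, with a median of 3.12%, and only 5 of the other 317 covered cytosines of MT-RNR2 reached 1%. Coverage in this stretch was 219 to 568 reads, with a median of 294, against 6152 outside it. The rise peaked at base 644, with 25 of 255 reads unconverted (interval 6.45% to 14.1%). What part low coverage has in this rise was not tested.

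**Figure D5:**
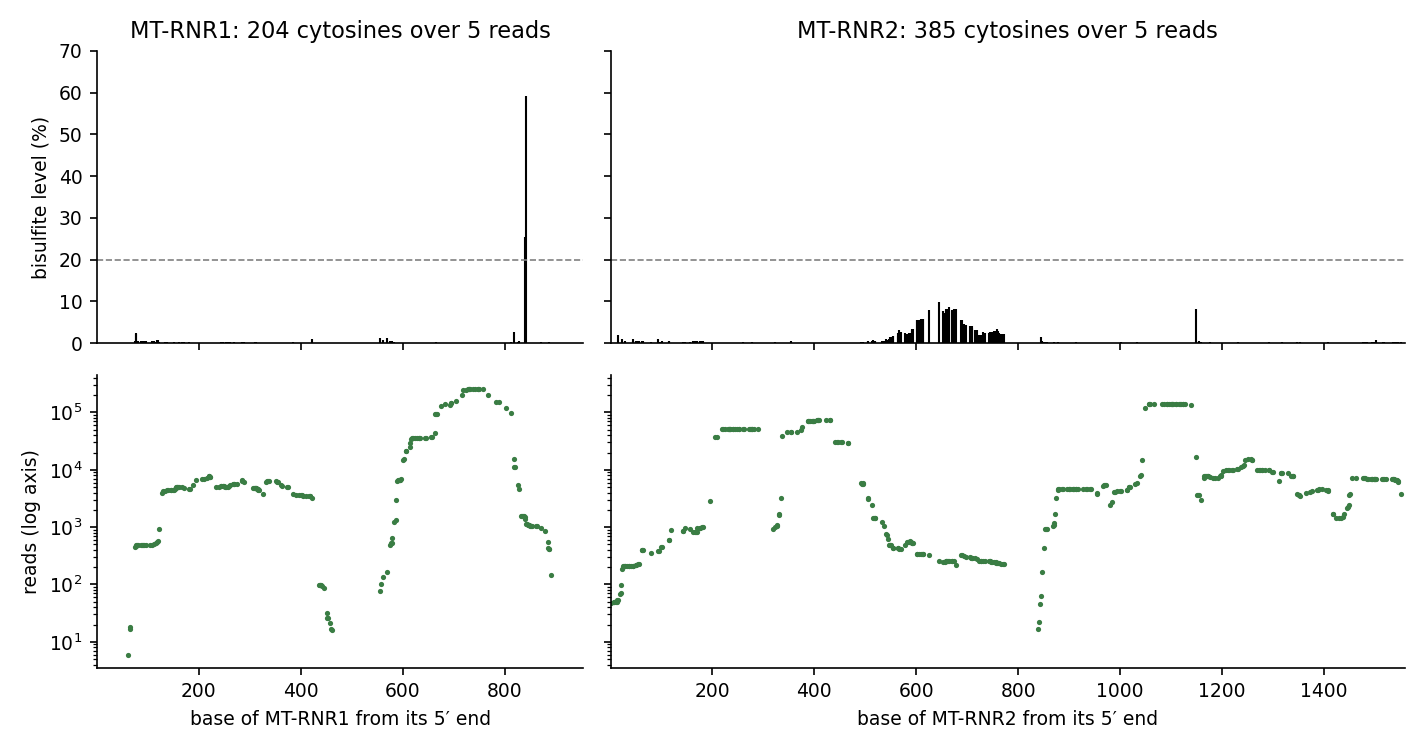
Bisulfite level (top, %) and number of reads (bottom, log axis) of the cytosines of MT-RNR1 (left) and MT-RNR2 (right) covered by over 5 reads, against the base counted from the 5′ end. The dashed line is 20%. The pair at the 3′ end of 12S rRNA stands alone, and the stretch from base 547 to base 773 of 16S rRNA is raised where reads number 219 to 568.

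Among cytosines with over 10000 reads, base 1148 of 16S had the highest level, with 1366 of 16691 reads unconverted, 8.18% (7.77% to 8.61%), while the 5 other covered cytosines within 12 nt were at 0.0191% to 0.610%. In 12S rRNA it was base 818, with 428 of 15422 reads, 2.78%, and 0.0443% to 0.534% at its 5 neighbours. Both lie where coverage drops steeply. Around base 1148 it fell from 136398 reads at base 1139 to 3622 at base 1151, and around base 818 from 98024 at base 813 to 4685 at base 828. Whether the ends of these stacks of reads bear on the levels was not tested.

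Cytosines with no entry in the table came in 3 blocks: 24 from base 473 to base 545 and 9 from base 892 to base 954 of MT-RNR1, and 12 from base 804 to base 832 of MT-RNR2. At these bases methylation could not be measured. After reading every C as T, all 45 lay in nuclear copies of at least 158 nt. Listed cytosines also lay in long copies. Exact ones of 215 and 168 nt begin at 12S bases 376 (5086 reads) and 423 (3210 reads). What part the copies have in the missing entries was not tested.

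Of a list of 32 nuclear genes that act on mitochondrial rRNA, ribosome assembly, transcription or RNA stability, 3 passed the filter on low counts. These were the pseudouridine synthase RPUSD3 (32, 36 and 16 NSun6 reads), the RNA helicase DHX30 (34, 41 and 30) and the GTPase MTG1 (19, 24 and 19). They had 0 reads in every NSun3 library and passed through NSun6 alone, so that their calls lower in NSun3, beside 85.2% of all genes, could not have gone the other way. NSun3 libraries held 4 reads on the whole list, on 3 of its genes, and NSun6 libraries 697, on 27 genes. The libraries had 47352 to 138921 reads for NSun3 and 305392 to 467586 for NSun6, and the part of depth in this was not tested. In bisulfite, 43 of the 20108 covered exon cytosines of the list were methylated, 0.214% against 0.775% of the whole table, in 9 genes, TRMT61B, MRM1, TRUB2, FASTKD2, RBFA, GTPBP10, LRPPRC, POLRMT and YBEY, and the highest level, in RBFA, rests on 10 reads.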

How the data were processed

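miCLIP files gave, per the labels and methods, counts of reads by truncation position and strand. The authors removed PCR copies with random barcodes and mapped reads to hg19 with Bowtie, keeping unique matches with 1 mismatch. The deposited bisulfite table, made by the authors with Bismark on hg19, gave the percent methylated and the counts of methylated and unmethylated reads per cytosine, pooling 2 samples. The methods describe levels made both with and without removal of PCR copies, and which of these the table holds is not given in the sources used here.

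The annotation was shifted to the mtDNA numbering of the files, by 2 nt up to position 3108 and by 1 nt from 3109, where the end of MT-RNR2 lies. The shifts were checked on listed cytosines (99.6% C or G of 1027 for positions 318 to 3108, and 99.7% of 5181 for 3109 to 16194). RPM used all reads of a file. Read counts per gene and strand and per cytosine were tested with edgeR 4.0.16 (TMM, filterByExpr, library totals of the file, Benjamini-Hochberg adjustment over all features), with DESeq2 1.42.0 as an alternative. Single values were compared with exact permutation tests (SciPy 1.17.1), and shares have exact Clopper-Pearson intervals, for counting error only. Nuclear copies were searched with BLAST 2.17.0 from the mtDNA of GRCh37, not the hg19 chrM that reads were mapped to, so substitutions between these sequences are not seen. Scripts were tested on simulated data. SE was derived from each fold change and its F statistic. Named cytosines were the 5 highest high-confidence ones per gene and enzyme, up to 5 called and not overlapping toward each enzyme, methylated ones, and C839 and C841. 12S bases 818 and 887 and 16S bases 398, 644, 967 and 1148 were chosen after their values were seen. Members and lists were chosen with earlier results of these data known.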

Additional observations from a re-analysis of the deposited data

Results flagged for a closer look

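The bisulfite table also lists cytosines of the opposite strand of both genes, which the comparisons did not use and for which there is no control sample. In MT-RNR1 73 of 152 such cytosines with over 5 reads (48.0%) were at a level of at least 20%, and in MT-RNR2 97 of 256 (37.9%). Their median coverages were 12 and 31 reads, and their median levels 18.2% and 12.5%. They were flagged as a signal in data outside the main measurement. The transcript-strand cytosines had median coverages of 4901 and 4542 reads and levels of 0.0800% and 0.116%. Opposite-strand reads in miCLIP numbered 0 to 5 per gene and library.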

How the results depend on the processing

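The direction of both gene tests held under RLE, library totals, no filter, DESeq2, the replicate block and every left-out library, but MT-RNR1 lost its call with no filter (2.04, adjusted p = 0.0677) and turned to -0.30 (0.127) with mtDNA features alone, where MT-RNR2 lost its call at 0.26 (0.296). Leaving out 1 library gave 2.20 to 4.27 and 2.89 to 5.01, all called. The libraries were not treated as paired by number. Deviations of same-numbered libraries correlated at -0.041 to 0.118 and those of differently numbered ones at -0.205 to 0.167. These values cannot show whether libraries were prepared in pairs. With the replicate block the values were 3.21 and 3.74 (adjusted p = 0.0496 each), and the lower calls in MT-RNR2 went from 1 to 0, as 16S base 23 was lost (adjusted p = 0.0642). For cytosines called higher in MT-RNR1, lower in MT-RNR1, higher in MT-RNR2 and lower in MT-RNR2 (10, 3, 8 and 1), no filter gave 20, 5, 31 and 5, mtDNA features alone 5, 8, 4 and 2, and left-out libraries 7 to 16, 3 to 10, 8 to 29 and 1 to 8. RLE gave 2 for the last. Cytosines of MT-RNR2 with no call changed sign under RLE, no filter, the replicate block and mtDNA alone, base 1439 to -0.68, -0.12, -0.28 and -1.90 and base 844 to -0.62, -1.12, -0.53 and -3.72, the last called lower (adjusted p = 0.045), and to -0.07 with DESeq2, and base 1486 to -1.12 with mtDNA alone. Left-out libraries gave -2.76 to 1.21, -3.59 to 0.68 and -2.38 to 2.04 for bases 1439, 844 and 1486. Base 1516 was called with RLE (-2.79) and no filter (-2.14), while 12S bases 275 and 313 and 16S base 566 lost their calls with mtDNA alone. The difference of log2 density ratios turned from -0.578 to 1.04 without 12S base 79, as leaving out a cytosine chosen for its NSun6 reads must lower the NSun6 ratios. Shares of mtDNA reads reversed with each position counted once (-3.64 and -4.40). High-confidence NSun3 counts fell from 20 and 39 to 9 and 9 when all 3 libraries had to pass, and to 9 to 17 and 9 to 36 with a library left out, and NSun6 counts rose from 6 and 7 to 16 and 23 at 20 RPM. At a level of 40%, 1 cytosine of MT-RNR1 was methylated. The causes were not tested. With 2 libraries against 3 the exact tests cannot go below 0.2. At 47352 reads, NSun3 replicate 3 shows nothing under 63.4 RPM with 3 reads.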
